A study of Homo sapiens with 6 samples.

Results

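The human cells of the 2 libraries made with the 10X Chromium droplet system are described here. They were chosen by 2 measured values. In each library the 2000 barcodes with the largest count sum were taken, and a barcode was kept as a human cell when at least 90% of its counts were on human transcripts. This gave 1006 human cells at 30 PCR cycles (50.3% of the barcodes taken, exact binomial interval 48.1 to 52.5%) and 911 at 35 cycles (45.6%, 43.4 to 47.8%), together 1917 of the 6000 barcodes that the labels count as cells in the 5 matrices of the series. In the same libraries 804 and 880 barcodes were mouse cells by the mirrored rule, and 190 and 209 fell between the cuts.

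The series tested what PCR amplification does to unique molecular identifiers (UMIs), the random tags by which copies of 1 molecule are recognised. For the 10X samples, human JJN3 and mouse 5TGMG1 (written 5TGM1 in the study) myeloma cell lines were mixed, captured once and pre-amplified, and the cDNA was then split, amplified further and read by nanopore sequencing. One portion is labelled 30 cycles and the other 35 cycles. The cycles given in the study's methods add up to these, while its main text gives lower combined numbers. No drug or allele separates the groups, so both hold the same untreated mixture of 2 established lines, and each group is 1 library. No test between libraries was therefore possible. The values of both stand side by side. Each interval given is an exact 95% interval that covers counting error only. Intervals on counts take every count as a separate molecule. A molecule may be stored under several transcripts, so those on summed counts can be too narrow.

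Myeloma is a cancer of plasma cells, the end stage of the B cell lineage, which secrete antibody. An antibody joins 2 heavy chains to 2 light chains, and a given clone uses either kappa or lambda light chains. The lambda chain is read from a V segment spliced through a J segment to a constant gene, all on chromosome 22, so 1 rearranged V segment marks a clone. Plasma cells carry a large endoplasmic reticulum and are known for the transcription factors PRDM1, IRF4 and XBP1 and the surface protein SDC1 (CD138).

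IGLL5, in the lambda locus, was the gene with most counts in these cells when counts were summed over transcripts. The sequences that follow show which genes of that locus can be told apart. Coordinates are on hg38, plus strand, from GENCODE 44. The single exon of the constant gene IGLC1 (chr22:22895375-22895834) lies at the start of the last exon of IGLL5 (chr22:22895375-22896107), and their 460 shared bases were equal in the 2 transcripts. A lambda message that ends in IGLC1 can thus be stored under IGLL5 too. The neighbouring constant genes differ. Over the 317 coding bases IGLC1 differed from IGLC2 at 15 and from IGLC3 at 16, while IGLC2 and IGLC3 differed from each other at 3. The first 150 coding bases of the 3 genes, 5′ to 3′, are shown with capitals at the 12 positions that are not the same in all of them (chr22:22895375-22895524, chr22:22900976-22901125 and chr22:22906342-22906491).
IGLC1: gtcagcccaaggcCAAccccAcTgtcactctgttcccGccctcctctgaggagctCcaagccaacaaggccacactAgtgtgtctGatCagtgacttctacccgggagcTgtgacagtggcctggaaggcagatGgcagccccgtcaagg
IGLC2: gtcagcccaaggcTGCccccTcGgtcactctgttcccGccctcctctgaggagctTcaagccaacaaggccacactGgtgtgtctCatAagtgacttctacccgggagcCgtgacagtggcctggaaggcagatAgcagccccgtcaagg
IGLC3: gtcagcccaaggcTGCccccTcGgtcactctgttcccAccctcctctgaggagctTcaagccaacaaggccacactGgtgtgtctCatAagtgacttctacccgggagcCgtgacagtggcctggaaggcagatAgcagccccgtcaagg

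Of these constant genes only IGLC1 held counts in the human cells. It had 2294 counts at 30 cycles and 4735 at 35, whereas IGLC2 and IGLC3 were listed at 0 in both libraries. IGLL5 held 7467 and 15219 counts over 3 transcripts (ENST00000532223 2693 and 5382, ENST00000526893 2689 and 5381, ENST00000531372 2085 and 4456). The counts of the first pair were nearly equal; whether they are the same molecules was not tested. With only the largest transcript of a gene kept in each cell, IGLL5 was at 2.45% and 4.13% of human counts in place of 4.61% (4.51 to 4.71%) and 7.64% (7.52 to 7.75%). The counts do not separate a message of the lambda-like gene IGLL5 from an IGLC1 lambda message.

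Of the V segments, 1 held nearly all counts. IGLV2-14 had 2535 of 2608 V segment counts at 30 cycles (97.2%) and 5169 of 5518 at 35 (93.7%). The next was its close relative IGLV2-8, with 69 and 328 counts. The second exons of both (chr22:22758904-22759218 and chr22:22822982-22823289) were equal at 292 of 308 coding bases compared. The 200 bases of each that hold most of their differences are printed with capitals at the 11 differing positions (chr22:22759010-22759209 and chr22:22823088-22823287).
IGLV2-14: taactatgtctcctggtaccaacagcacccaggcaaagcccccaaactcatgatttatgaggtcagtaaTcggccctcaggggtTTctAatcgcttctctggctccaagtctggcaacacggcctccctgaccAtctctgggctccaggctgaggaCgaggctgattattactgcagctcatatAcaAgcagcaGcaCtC
IGLV2-8: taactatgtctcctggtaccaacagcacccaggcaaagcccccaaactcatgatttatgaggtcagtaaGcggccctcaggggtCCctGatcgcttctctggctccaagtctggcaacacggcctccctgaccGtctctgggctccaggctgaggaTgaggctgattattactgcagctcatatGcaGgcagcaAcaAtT

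All 32 cells with an IGLV2-8 entry at 30 cycles, and all 139 at 35 cycles, held IGLV2-14 as well, against 74.2% and 96.7% of all human cells. The IGLV2-8 share of human counts was 0.0426% at 30 cycles and 0.165% at 35, a log2 ratio of 1.94 (1.57 to 2.35), whereas that of IGLV2-14 was 0.73 (0.66 to 0.80). IGLC1 and IGLV2-14 moved together from cell to cell. Across the 1006 and 911 cells the Spearman correlation of their counts was 0.91 and 0.93, where both points of a pair share the cell's depth and may share molecules. Against MT-CO1, a mitochondrial gene from the same cells, the correlation of IGLL5 was 0.22 and 0.30.

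Depth was low in every cell. The count sum of a human cell, by which the barcodes were chosen, ran from 76 to 1174 at 30 cycles, with a median of 118, and from 114 to 1258 at 35 cycles, with a median of 171. The first barcodes left out also had 76 and 114 counts, since ties were settled by barcode name. The mouse cells had medians of 117 and 171. The smallest stored value was 2 in both libraries, and 81.3% and 74.3% of the human entries in these cells were 2. Why no value of 1 is stored is not given in the sources. If transcripts with 1 UMI in a cell were left out, they cannot be told from a true 0. A median of 36 and 43 human genes was stored per cell. All human cells together held 161961 and 199308 human counts on 7858 and 7639 genes. The share of human counts was 100% in 770 and 722 of the cells, the lowest share inside the cut was 91.1% and 92.1%, and the highest outside it was 89.8% and 89.7%.

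The rule keeps counts of the other species few in both kinds of cell, so the next values are a description. Mouse transcripts made up 0.609% and 0.403% of all counts in the human cells. In the other direction, a mouse cell held on average 2.66 and 3.65 human counts, against 161 and 219 in a human cell. Among those human counts in mouse cells IGLL5 took 1.64% at 30 cycles and 7.38% at 35, while it took 4.61% and 7.64% in the human cells. The most frequent human entry in mouse cells at 30 cycles was not a lambda gene: the transcript ENST00000600213.3, which had no match in GENCODE 44, held 209 and 196 counts there, against 1516 and 1962 in the human cells.

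**Figure D1:**
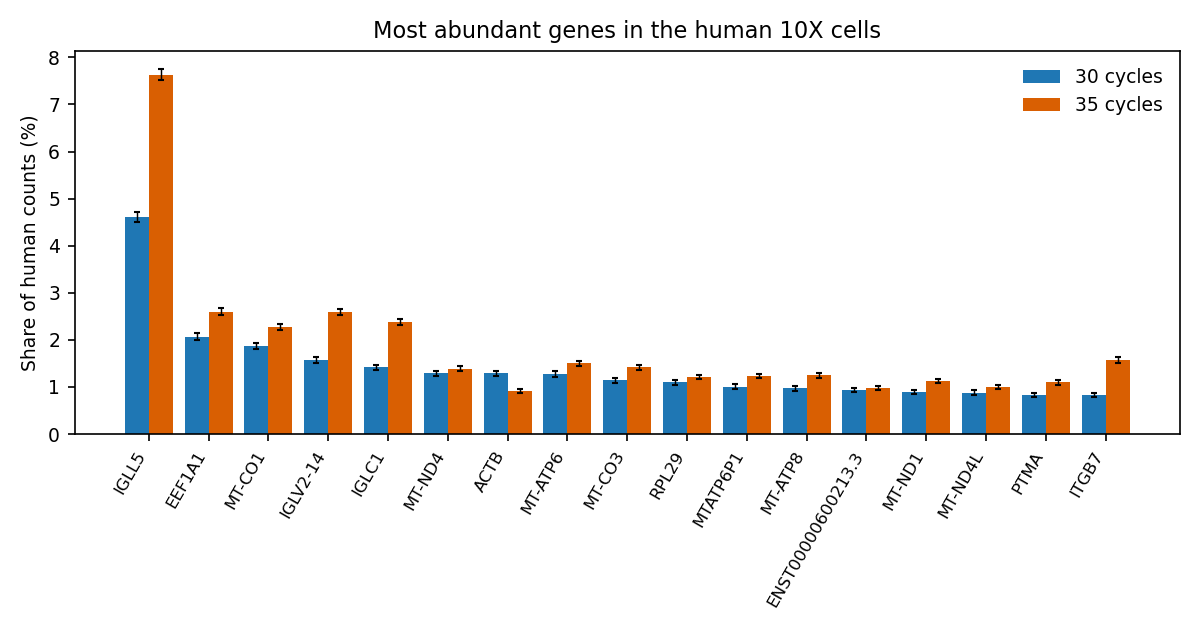
Share of human counts (percent, linear axis) of the genes among the 15 most abundant of either 10X library, in all human cells of the 30-cycle (blue) and the 35-cycle (orange) library; error bars are exact 95% binomial intervals, and counts are not divided by transcript length. IGLL5 stands apart at 4.61% and 7.64%, and ACTB is the gene whose bar is lower at 35 cycles.

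The 15 most abundant genes held 22.3% of human counts at 30 cycles and 30.3% at 35, and 13 genes were among the 15 in both. They fell into few groups. One was the lambda chain (IGLL5, IGLV2-14, IGLC1). A second was the mitochondrial genome (MT-CO1, MT-ND4, MT-ATP6, MT-CO3, MT-ATP8, MT-ND1, MT-ND4L), with the nuclear copy MTATP6P1, which can share reads with MT-ATP6. The others were the elongation factor EEF1A1 (3353 and 5187 counts), RPL29 (1775 and 2422), ACTB (2085 and 1824), at 30 cycles the unmatched transcript ENST00000600213.3 (1516 and 1962), and, at 35 cycles, ITGB7 and PTMA. Counts are of molecules captured at the 3′ end, so the main order was not divided by length. On counts per kilobase of the longest stored transcript of a gene, the leading genes at 30 cycles were MT-ATP8 (7599), IGLV2-14 (6306), IGLL5 (5593) and IGLC1 (4987). MT-ATP8 is short (chrM:8366-8572) and overlaps MT-ATP6 (chrM:8527-9207), so the 2 genes may share molecules. On the same scale at 35 cycles they were IGLV2-14 (12858), MT-ATP8 (11976), IGLL5 (11400) and IGLC1 (10293). IGLL5 was first by summed counts in both libraries, with EEF1A1 after it, whereas per kilobase the first gene differed between the libraries. With only the largest transcript of a gene kept in each cell, MT-CO1 was first at 30 cycles (3031, with IGLL5 at 2700). IGLL5 was first at 35 cycles (5382, with MT-CO1 at 4516). EEF1A1 then had 890 and 1325 counts and was not among the first 15 in either library.

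The label was checked against markers. The label says myeloma, and 14 of 15 plasma cell genes had counts in each library. ITGB7, an integrin beta chain, had 1345 and 3137 counts and so most of the list's 2478 and 4087. JCHAIN, which links IgA and IgM into polymers, had 392 and 310 counts, in 15.9% and 14.1% of the cells. PRDM1, the repressor that drives plasma cell fate, had 392 and 134 counts, and MZB1, a chaperone of immunoglobulin assembly, 201 and 280. The remaining members were sparse. SDC1 had 29 and 38 counts, IRF4 22 and 27, the receptor TNFRSF13B 26 and 58, SLAMF7 20 and 34, and XBP1 6 and 36. None of these last 5 was stored in more than 1.54% of the cells of either library. No plasma cell gene except ITGB7 and PRDM1 had a count in mouse cells (10 and 48 counts, and 6 and 2). Mouse cells were chosen for few human counts and held 2136 and 3212 in all, so this is no check of the label.

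Markers of other cell types had few or no counts, except the B cell gene CD74. The labels and the study's 10X methods name JJN3, whereas a figure legend names the T cell line Jurkat as the human partner and the list of cultured lines holds Jurkat and not JJN3, so T cell genes were counted as well. Of 21 T cell genes 4 at 30 cycles and 3 at 35 had any count, 10 and 6 in all, in 0.497% and 0.329% of the cells. CD3D, CD3E, TRAC and LCK held no stored count. The level of 3 counts was 0.00185% of human counts at 30 cycles and 0.00151% at 35. It covers counting error in stored entries and not any single UMIs that were left unstored. Of 10 B cell genes only CD74, the invariant chain of MHC class II (158 and 338 counts), and HLA-DRA (2 and 2) had counts, while MS4A1 and CD79A had none. The myeloid list had 0 and 4 counts, the erythroid list 0 and 4, and the stromal or epithelial list 14 and 2.

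**Figure D2:**
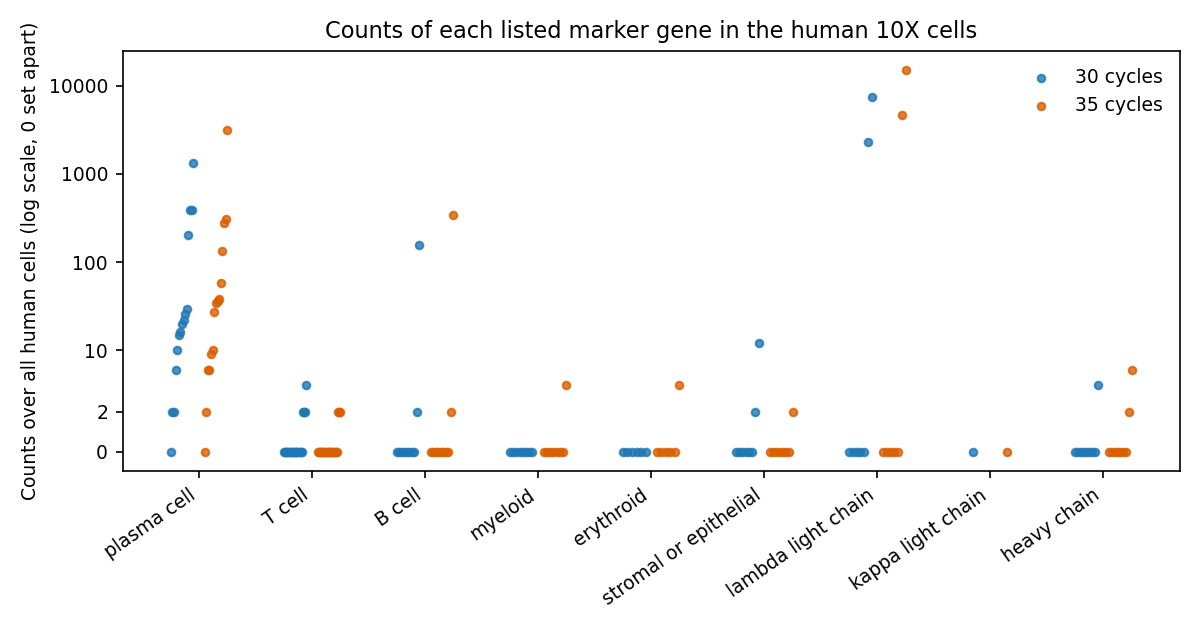
Counts of each gene of 9 marker lists summed over the human cells (log axis, with genes at 0 or not stored set apart at the bottom), at 30 cycles (blue) and 35 cycles (orange). The 14 plasma cell genes with counts spread from 2 to over 1000, and 2 lambda genes lie higher still. The T cell list, with 10 and 6 counts in all, stays near the bottom.

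The chains of the antibody were far from equal. The kappa constant gene IGKC had 0 counts in both libraries. Of 9 heavy chain constant genes IGHG1 had 4 and 6 counts and IGHG3 0 and 2, with the rest at 0 or not listed. Both lambda genes of the fixed list that had counts, IGLL5 and IGLC1, together made up 6.03% and 10.0% of human counts. The heavy chain list made up 0.00247% and 0.00401%.

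Several genes known from myeloma stood beside these. MAF, a transcription factor that some myelomas overexpress through a translocation, had 204 and 111 counts, in 7.75% and 5.38% of the cells. CCND2, a cyclin that drives entry into the cell cycle and a known target of MAF, had 345 and 341 counts, in 141 of 1006 and 150 of 911 cells. ITGB7, another known MAF target, was stored in 20.6% and 42.0% of the cells. NSD2 had 23 and 40 counts, CCND1 4 and 2, and MYC 16 and 0. Of the 12 genes of this list, 7 and 8 had counts.

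Detection depends on depth, so each cell was also thinned to 100 counts, with values under 2 left out. That left out 348 of the human cells at 30 cycles and none at 35. IGLL5 was then stored in 69.1% of 658 human cells (65.5 to 72.7%) at 30 cycles and in 92.6% of 911 (90.8 to 94.3%) at 35, against 76.2% and 97.1% without thinning. In the thinned mouse cells, where the rule itself limits human counts to 10%, it was stored in 0.768% of 521 and 2.84% of 880. MT-CO1 was stored in 57.1% and 70.7% of the thinned human cells (82.9% and 96.3% without thinning) and in 0.768% and 0.455% of the mouse cells. IGLL5 sums 3 transcripts and MT-CO1 has 1, so their detection is not compared on equal terms. JCHAIN was stored in 7.75% and 3.07% of the human cells, and in 0 of the 521 and 880 mouse cells, for which the exact upper limits were 0.706% and 0.418%. At equal depth ITGB7 went from 15.5% to 27.7% of human cells and CCND2 from 6.84% to 4.50%. For CCND2 the intervals overlapped at 100 counts (5.03 to 9.04% and 3.25 to 6.06%), and also at 50 and at 200. These intervals treat cells as independent and cover 1 library each, so they are no test of the cycle number. For JCHAIN they overlapped at 50 counts (1.94 to 4.11% and 0.762 to 2.43%) and at 200 (12.8 to 23.7% and 9.18 to 16.7%), and for MT-CO1 they overlapped at 50, where it was stored in 33.0% and 36.2%. The 658 cells thinned at 30 cycles are the deeper ones of that library.

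**Figure D3:**
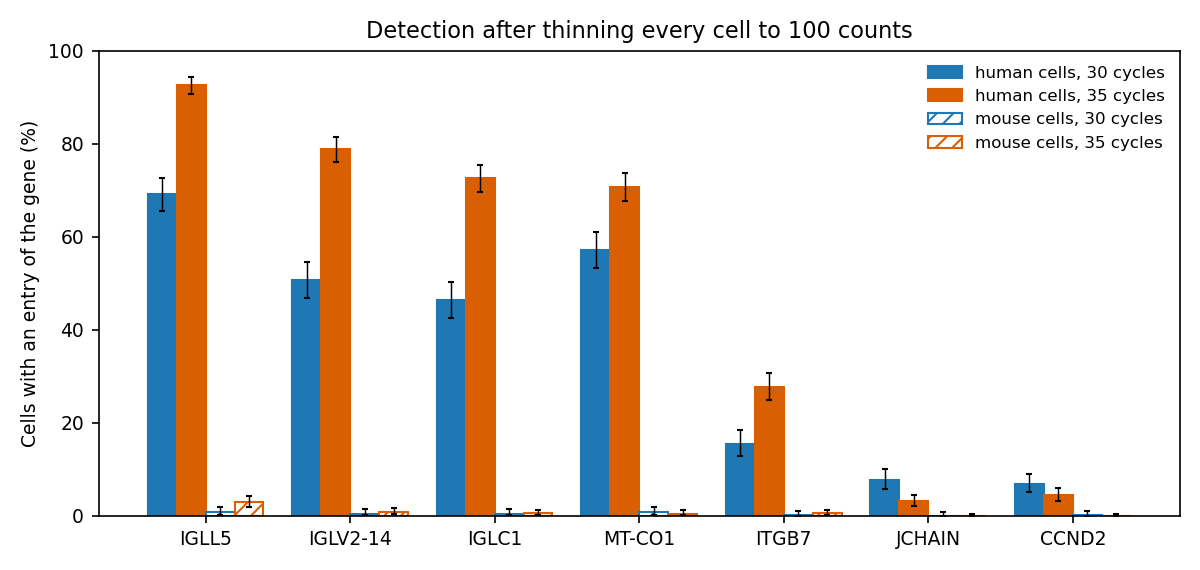
Percent of cells with a stored entry of 7 genes after every cell was thinned to 100 counts, in human cells (filled) and mouse cells (hatched) of the 30-cycle (blue) and 35-cycle (orange) libraries; error bars are exact 95% binomial intervals over cells. IGLL5 reached 69.1% and 92.6% of human cells and at most 2.84% of mouse cells, which were chosen for few human counts. IGLL5 sums 3 transcripts and MT-CO1 has 1, so their bars are not on equal terms.

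Genes of protein secretion were spread widely and thinly. Of 24 endoplasmic reticulum and secretion genes, 21 and 23 had counts, and the list held 1.49% and 1.66% of human counts. SSR2, a subunit of the translocon-associated complex, led with 506 and 837 counts. HSP90B1, the HSP90 of the endoplasmic reticulum, had 283 and 668, and HERPUD1, a protein of its stress response, 464 and 304. No ribosomal protein gene came near IGLL5, yet the 83 genes of that family, of which 78 and 79 had counts, held 6.49% and 7.04% of human counts, led by RPL29, RPL6 (1301 and 1917) and RPL10 (1026 and 1849).

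Genes of the cell cycle were measurable in few cells. The 25 genes of G2 and M phase held 0.385% and 0.638% of human counts and had an entry in 10.4% and 20.5% of the cells. Most of the list's 623 and 1271 counts were on STMN1 and H2AZ1, so its values rest mainly on these genes. Other members were near the floor, such as CCNB1 (0 and 0), CDC20 (0 and 4), UBE2C (4 and 2) and TOP2A (6 and 16). STMN1, which destabilises microtubules, had 277 and 596 counts, the histone variant H2AZ1 106 and 240, and HMGB2 40 and 90. The S phase list held 0.228% and 0.182%, with RRM2, a subunit of ribonucleotide reductase, at 113 and 122 counts, the replication helicase subunit MCM3 at 83 and 107, and HELLS at 48 and 34. No phase was called per cell, since the median cell held no count of either list.

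In the remaining lists 1 or 2 genes carried most counts. GAPDH had 482 and 927 of the 750 and 1203 glycolysis counts, followed by ENO1 (72 and 38) and TPI1 (50 and 48). HSP90AB1 had 544 and 1675 of the 935 and 2359 counts of cytosolic chaperones, followed by HSPA8 (127 and 283) and CCT3 (70 and 74). B2M, the small subunit of MHC class I, had 75 and 181 counts, while HLA-B had 14 and 18. The stress list was low, at 56 and 50 counts, most of them from TXNIP (33 and 22) and ATF4 (12 and 18), with DNAJB1 at 2 and 8.

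The mitochondrial coding genes formed the largest of the lists. All 13 had counts, and together they made up 10.7% and 13.2% of human counts. MT-ATP8 overlaps MT-ATP6, and MT-ND4L overlaps MT-ND4, so a molecule may be counted under both genes of a pair. MT-CO1, a subunit of cytochrome c oxidase, held 3031 and 4516 counts and was stored in 82.9% and 96.3% of the cells. MT-ND3 was the lowest, with 27 and 56 counts. With the largest transcript of each gene only, the list made up 15.7% and 20.2% of totals of 110299 and 130376 human counts.

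Cells differed widely in this share. Among the 1006 cells at 30 cycles the mitochondrial share had a median of 10.3%, quartiles of 6.46% and 15.3%, and a maximum of 52.6%. Among the 911 at 35 cycles the median was 12.8%, the quartiles 9.42% and 17.7%, and the maximum 48.1%. The lambda share had a median of 6.59% (quartiles 2.05% and 10.1%) at 30 cycles and 10.4% (7.44% and 13.8%) at 35. The ribosomal protein share had medians of 4.56% and 5.67%. Shares of the lambda genes were lower in cells with more counts, with a Spearman correlation to the cell's human counts of -0.18 and -0.31, and that of the ribosomal proteins was higher (0.18 and 0.20). No entry under 2 is stored, so these shares are not independent of depth.

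**Figure D4:**
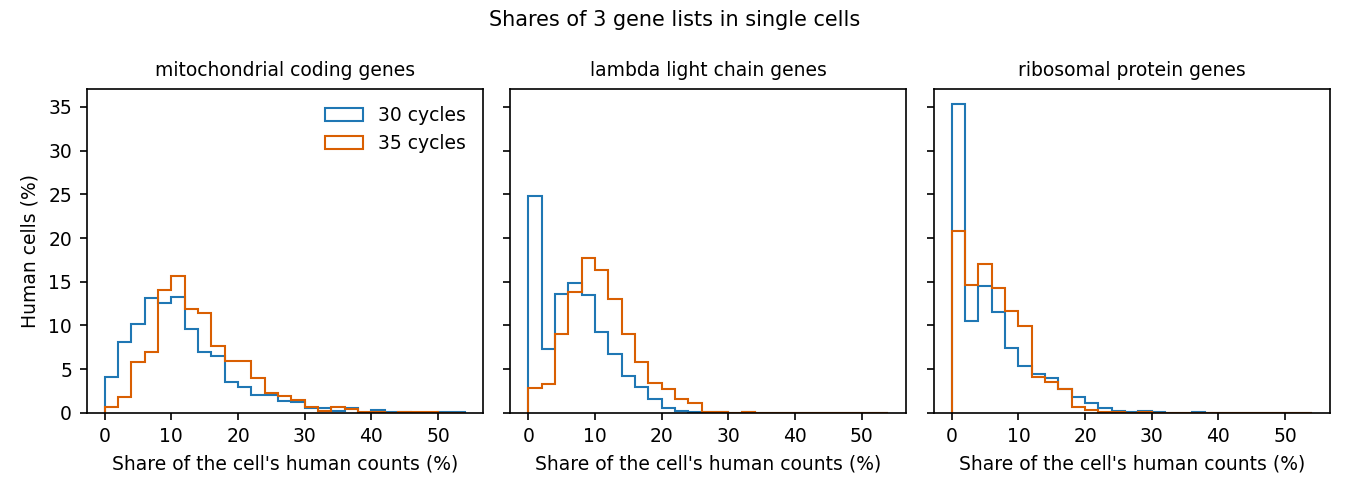
Distribution over human cells of the share of a cell's human counts (percent, bins of 2 points) that fell on the mitochondrial coding, lambda light chain and ribosomal protein genes, at 30 cycles (blue, 1006 cells) and 35 cycles (orange, 911 cells); the vertical axis is the percent of cells. The first bin of the lambda panel holds the cells with no stored lambda count, which are many at 30 cycles and few at 35.

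The same captured cells were followed across the libraries by their barcodes. Of the human cells, 722 barcodes were human cells in both, which was 71.8% of those at 30 cycles and 79.3% of those at 35. No barcode was a human cell in one library and a mouse cell in the other. The stored barcodes have 10 bases, fewer than a 10X barcode, so different cells could share one. In the 722 the count sums of the 2 libraries had a Spearman correlation of 0.65, and the sum was larger at 35 cycles in 572 (79.2%), with a median ratio of 1.37. The 2 libraries share the captured molecules of each cell, so the agreement described next includes the noise of the capture itself.

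The mitochondrial share agreed best among the lists described. Over the 722 barcodes its Spearman correlation between libraries was 0.63. That of the G2 and M phase genes was 0.42, of the ribosomal proteins 0.39 and of the lambda genes 0.38. The secretion genes had 0.26 and the plasma cell list 0.19. Within a library the mitochondrial and the lambda share were almost unrelated (0.02 at 30 cycles and -0.03 at 35), and the mitochondrial and ribosomal shares were weakly opposed (-0.14 and -0.26). Of 73 single genes with at least 200 counts in each library the median correlation was 0.21. The highest were MT-ND4 (0.49), MT-ND4L (0.47), MT-ATP6 (0.43) and, outside the mitochondria, MDM2 (0.40), IGLV2-14 (0.39), STMN1 (0.38) and IGLL5 (0.38). MDM2, the ubiquitin ligase of p53, had 651 and 792 counts and was named after its values were seen. Of the 17 genes over 0.3, 9 were mitochondrial, as were 12 of all 73.

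**Figure D5:**
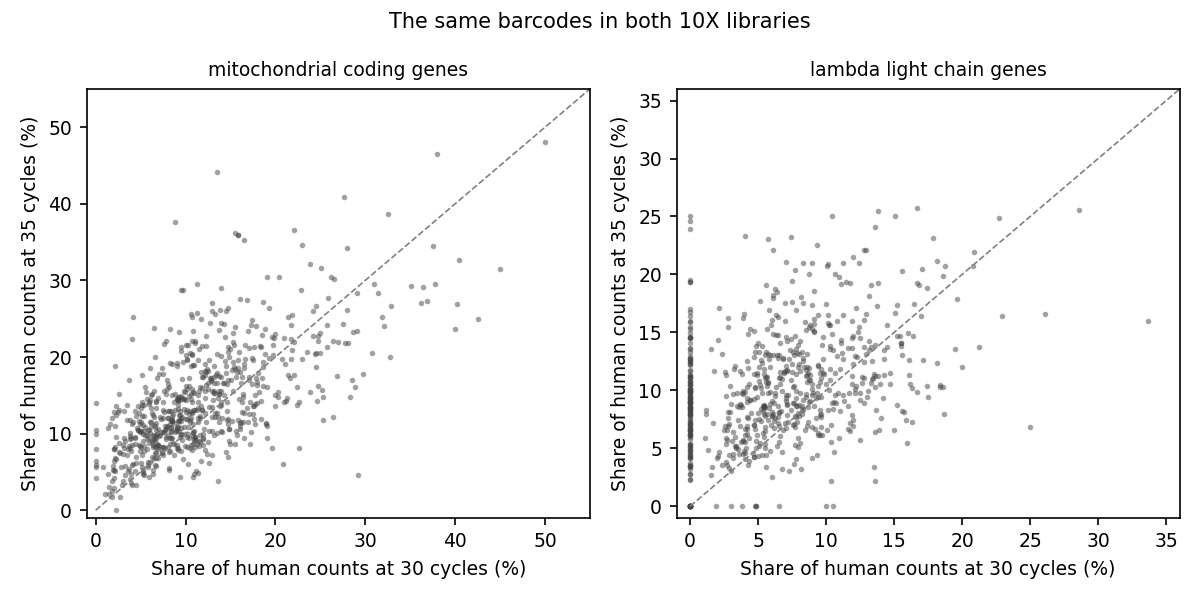
Share of human counts (percent) on the mitochondrial coding genes (left) and the lambda light chain genes (right) at 30 cycles (horizontal) and 35 cycles (vertical) for the 722 barcodes that were human cells in both libraries; each point is 1 barcode and the dashed line marks equal shares. Mitochondrial shares follow the line loosely (Spearman 0.63), and the column at 0 in the lambda panel is made of cells with no lambda count at 30 cycles, most of which had one at 35.

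Most cells without an IGLL5 entry at 30 cycles had one at 35. Of the 722 barcodes, 149 had no IGLL5 entry at 30 cycles, and 134 of these (89.9%) had one at 35. Of those with an entry at 30 cycles 98.4% had one at 35, and of all 722 barcodes 96.7%. In the other direction 24 had none at 35 cycles, of which 9 had one at 30, so 15 barcodes had none in either. IGLV2-14 and MT-CO1 gave 19 and 9 such barcodes. For sparser genes an entry recurred less often: of the cells with JCHAIN at 30 cycles 37.0% had it at 35, as had 42.2% for CCND2, 29.0% for MAF and 75.1% for ITGB7. Cells with no JCHAIN entry at 30 cycles had one at 35 in 11.1%. Of all 722 barcodes, 15.7% had JCHAIN at 35 cycles, 19.0% CCND2, 6.09% MAF and 44.2% ITGB7.

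The spread of single genes over cells was measured by an index. With every count stored, it is near 1 when counts follow the cell's depth and the gene's mean share alone. No entry under 2 is stored here, so 1 is not the level to compare with. The level without added spread was not determined. Genes were ordered by the smaller of their 2 indices, and by counts summed over transcripts the first 10 of 73 were HSP90AB1 (8.42 and 10.4 at 30 and 35 cycles), HNRNPU (8.88 and 8.26), ACTG1 (9.40 and 8.15), RPL11 (7.83 and 8.43), GAPDH (8.84 and 7.20), PRRC2C (6.90 and 7.74), CLPTM1L (6.54 and 7.52), PTMA (6.92 and 6.50), EEF1A1 (6.92 and 6.49) and TBL1XR1 (6.44 and 6.93). The median over the 73 was 3.78 and 3.72. Across the genes the index had a Spearman correlation of 0.85 in both libraries with the number of transcripts that held the gene's counts; genes are not independent replicates. With the largest transcript only, 47 genes had enough counts, the median index was 1.97 and 1.83, and only 2 of the 10 genes still had enough counts to be ordered, of which 1 was among the first 10. The first by the smaller index were then MT-ND2 (2.45 and 2.57), MT-ND4L (2.31 and 2.36) and MT-ND6 (2.31 and 2.27). IGLL5, IGLC1 and IGLV2-14 lay low on this scale, at 1.64, 1.61 and 1.67 at 30 cycles and 1.40, 1.33 and 1.39 at 35.

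One barcode set the spread of ACTB, the gene of beta-actin, at 30 cycles. Of its 10 stored bases 9 were A, and 172 of its 175 counts were on ACTB. With it, the largest-transcript index of ACTB was 9.92 at 30 cycles and 2.03 at 35; without it the former was 2.32. The ACTB share at 30 cycles was 1.29% with that barcode and 1.18% without, against 0.915% at 35 cycles. It was counted among the 1006 human cells because it met the rule.

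Set side by side by gene, 421 genes had at least 100 counts over both libraries. By a rule of size, 44 of them (10.5%) were at least 2-fold higher in their share of human counts at 35 cycles and 85 (20.2%) at least 2-fold lower; this is the background for the lists, and no list was tested. The median log2 ratio over the 421 was -0.19. Of the 12 mitochondrial coding genes with enough counts none passed 2-fold either way, and their median was 0.30. The 2 lambda genes had 0.73 and 0.75. None of 4 G2 and M phase genes (STMN1, H2AZ1, HMGB2 and TUBA1B) passed, with a median of 0.87 and a range of 0.80 to 0.97. None of 11 secretion genes passed. Of 4 cytosolic chaperone genes 2 were higher, and HSP90AB1 had a log2 ratio of 1.32 (1.18 to 1.47). Of 42 ribosomal protein genes 1 was higher and 5 were lower. Of 4 plasma cell genes PRDM1 was lower (-1.84, -2.14 to -1.56), while ITGB7 had 0.92 (0.83 to 1.02), MZB1 0.18 (-0.09 to 0.45) and JCHAIN -0.64 (-0.86 to -0.42). MAF was lower as well (-1.17, -1.52 to -0.84), whereas CCND2 had -0.32 (-0.54 to -0.10).

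The genes at the ends of this order were mixed in level. TCEAL4, a transcription elongation factor-like gene, had 6 counts in 1 cell at 30 cycles and 146 counts in 19 cells at 35. DNAJC8 had 16 and 112 counts, ANKRD11 20 and 98, and PSMC3, a subunit of the proteasome, 22 and 103. At the other end MINDY2 had 140 and 37, C15orf40 103 and 28, TAF1D 382 and 118, KTN1 114 and 37, and TBL1XR1, part of a corepressor complex, 773 and 260. The last was stored in 101 cells at 30 cycles and in 38 at 35.

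By the class of transcript, coding transcripts held 70.0% and 71.3% of human counts in these cells. Transcripts with a retained intron held 8.57% and 6.73%, those marked for nonsense-mediated decay 5.05% and 4.52%, and those without a match in GENCODE 44 6.73% and 6.48%.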

How the data were processed

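Per the labels and the study's methods, the authors read 10X cDNA by nanopore sequencing, aligned reads to a human (hg38) and mouse transcriptome with minimap2, and deduplicated with UMI-tools. They deposited UMI counts per barcode and transcript. These counts were not normalized, no value under 2 is stored, and the source of that minimum is not given in the sources used here. A molecule may be stored under several transcripts, which the counts alone do not show: 28.6% and 32.3% of cell and gene pairs had more than 1 transcript, with equal counts in 92.1% and 89.0% of those. The 4 other samples of the series were not used here.

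Transcripts were matched to GENCODE 44 by identifier without version (21916 of 23384 and 22088 of 23693 human transcripts, 93.3% and 93.5% of human counts). An unmatched transcript was kept under its own identifier. Counts were summed over a gene's transcripts; the largest transcript per cell was the alternative. The 10X totals over all barcodes were 494147 and 740994 counts. Ratios used counts per human counts with a pseudocount of 0.5 and a minimum of 100 counts. The spread index is the Pearson statistic over cells divided by cells minus 1, for genes with at least 200 counts in each library. Thinning drew 100 counts per cell without replacement. Correlations over shared barcodes used those with at least 50 counts in both libraries, which all 722 had. Intervals are exact 95% ones. The index and the ratio were tested on simulated counts that kept values under 2 and held 1 value per gene. That test does not cover the absence of values under 2 or molecules stored under several transcripts. Doublet calling and clustering were not run, and no fit across genes was possible with 1 library per group.

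Genes named are the 4 given markers, the 15 most abundant genes per library, plasma and T cell genes with at least 20 counts, the 3 most abundant genes of each other list, the 10 most variable genes and the 5 highest and 5 lowest ratios; any others were named after their values were seen. Some genes that this rule names are not reported here. The members and lists were chosen with earlier results of these data known, and the ribosomal protein list, by symbol, was added later. Python with numpy, pandas and scipy was used.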

Additional observations from a re-analysis of the deposited data

How the results depend on the processing

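Values in pairs are for 30 and 35 cycles, and a value counts as moved when it left the counting interval of the reported one, or a count when it changed by over 1.5 times; 55 of 121 recomputed values did neither. Cuts at 80% or 95% human counts moved no share, count of cells or median. With the 1000 largest barcodes there were 492 and 439 human cells, with medians of 185 and 241 counts, and shares of 4.05% and 6.84% for IGLL5, 10.00% and 12.3% for the mitochondrial genes and 1.64% and 2.13% for the plasma cell list. With all barcodes of at least 100 counts there were 658 human cells at 30 cycles; medians were 154.5 and 153, IGLL5 was at 4.29% and 7.93%, the mitochondrial genes at 10.3% and 13.4%, and the plasma cell list at 1.59% at 30 cycles. Over the cells in both libraries medians were 140 and 187, IGLL5 was at 7.31% at 35 cycles and the plasma cell list at 1.62% at 30. Leaving out entries of 2 gave medians of 33.5 and 71, IGLL5 at 12.1% and 17.5%, the mitochondrial genes at 25.6% and 25.4%, the plasma cell list at 1.86% and 2.54% and the T cell list at 0 and 0%. With the largest transcript IGLL5 was at 2.45% and 4.13%, the mitochondrial genes at 15.7% and 20.2% and the plasma cell list at 1.08% and 1.27%. IGLL5 was stored in 46.4% and 71.2% of cells thinned to 50 counts, 83.7% and 97.2% at 200, and 76.2% and 97.1% unthinned.

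With at least 200 counts in both libraries (174 barcodes) the agreement was 0.69 for the mitochondrial genes, 0.59 for G2 and M phase, 0.56 for the lambda genes, 0.57 for IGLL5 and 0.39 for MT-CO1 (0.37 over all 722), and with at least 100 it was 0.49 for G2 and M phase and 0.38 for the lambda genes. Without entries of 2 it was 0.49 (mitochondrial), 0.16 (G2 and M phase), 0.22 (lambda), 0.23 (IGLL5) and 0.21 (MT-CO1). Genes at least 2-fold higher and lower at 35 cycles numbered 109 and 191 of 877 with a minimum of 50 counts, 18 and 33 of 200 with a minimum of 200, 17 and 52 of 256 with the largest transcript, and 16 and 31 of 97 without entries of 2. Of the 10 most variable genes 5 stayed among the 10 with a minimum of 100 counts, 3 with 500, where 3 had enough counts, and 1 with the largest transcript, where 2 had. The alternative without the barcode of equal bases was chosen after seeing the data and moved the ACTB share to 1.18%. The causes of these shifts were not tested beyond what each alternative leaves out. No paired analysis was possible because each group is 1 library with 1 replicate number and no test was made; the barcodes shared by both libraries were compared as a description only.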
